A study of Mus musculus with 8 samples.

Results

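Regulatory T (Treg) cells lacking RelB were compared with Treg cells lacking both RelB and Nfkb2, which gives the effect of removing Nfkb2 where RelB is already gone. The 4 libraries compared, 2 double-knockout (DKO) and 2 RelB-knockout (RelB-KO), were chosen by genotype and replicate number from the 8 libraries of the study. The other 4 libraries, 2 wild-type (WT) and 2 Nfkb2-knockout (Nfkb2-KO), gave the same removal of Nfkb2 with RelB present, and the 2 removals have no library in common.

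Treg cells are CD4 T cells that express the transcription factor Foxp3 and restrain immune responses. In the alternative NF-kB pathway, receptors of the tumour necrosis factor (TNF) family such as OX40 stabilise the kinase NIK (Map3k14), and IKKα (Chuk) then drives processing of p100, the product of Nfkb2, to p52. RelB enters the nucleus mainly as a partner of p52, while unprocessed p100 holds RelB and other NF-kB subunits in the cytoplasm. Loss of Nfkb2 therefore takes away both an activating partner and an inhibitor.

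All mice were C57Bl/6 and all carried a Foxp3-CRE-YFP allele, the WT mice included, so that Cre recombinase and a YFP reporter were expressed from the Foxp3 gene. RelB-KO mice also carried RelB F/F alleles, Nfkb2-KO mice carried nfkb2 F/F alleles and DKO mice carried both, so each deletion was driven in Foxp3-expressing cells. The YFP-positive Treg cells came by sorting from a pool of lymph node and spleen cells. They were cultured for 16 h at 37 °C on antibody to CD3 (5 µg/ml) with antibody to CD28 (1 µg/ml), an agonist antibody to OX40 (2 µg/ml) and the T cell growth factor IL-2 (10 ng/ml). Age, sex and the number of mice behind each library were not given in the sources used here. The p-values below therefore measure only the spread between these libraries, which may be technical.

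Expression values were the deposited log2 values, a scale relative to library size on which 1 unit is a doubling. The design states 30 M reads for each sample and the depth reached is unknown, so no counting interval is given. Per library the sum of the un-logged values was 18.2 to 19.7 M. Foxp3 lay between 13.95 and 14.28 in all 8 libraries, and Cd3e and Cd4 lay between 12.61 and 13.67 in the 4 libraries compared, so the cells carried the markers of their label. Markers of other cells were low: the B cell gene Pax5 and the dendritic cell gene Clec9a were listed at 0 in every library, and Cd8a lay between 0.88 and 0.92 in the 4 libraries compared. Summed un-logged levels were 301 to 354 in RelB-KO and 347 to 355 in DKO for 9 tested B cell markers, and 1218 to 1445 against 1328 to 1406 for 11 myeloid and dendritic cell markers. For 11 tested CD8 T and NK cell markers they were 651 to 973 against 756 to 889. In sex-linked transcripts WT replicate 1 stood apart (Xist 8.17 against 14.61 to 15.13, Ddx3y 11.60 against 4.25 to 4.35 in the others). It does not enter the size of the difference between DKO and RelB-KO, but it enters the estimate of spread behind the p-values of that difference. It also enters every comparison with WT below. Counts without it are given for the genes called between Nfkb2-KO and WT and for those called in the interaction. Most other comparisons with WT are given with all 8 libraries only.

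Removing Nfkb2 from RelB-deficient cells lowered the Nfkb2 transcript and raised Podnl1, and no other gene passed the test. These were 2 of 13797 genes tested, or 0.0145%, at a Benjamini-Hochberg adjusted p under 0.05 in limma. The unadjusted p was under 0.05 for 1216 genes (8.81%), of which 633 were higher and 583 lower in DKO. Only 73 genes (0.529%) differed by 0.5 log2 units or more in either direction, and 7 (0.0507%) differed by 1 or more. With RelB present the same removal gave 398 genes (2.88%) at 0.5 or more and 58 (0.42%) at 1 or more.

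Nfkb2, the targeted gene and the check of the labels, read 12.67 and 12.31 in RelB-KO replicates 1 and 2 and 9.29 and 9.85 in DKO replicates 1 and 2. Both DKO libraries lay below both RelB-KO libraries. The difference was -2.92 ± 0.18 (SE, n = 2 libraries per genotype, adjusted p = 0.00108 in limma, 95% interval -3.33 to -2.52), and within replicate numbers it was -3.39 and -2.46. The gene lies on chromosome 19 (mm10, 46304320 to 46312385, plus strand). In Nfkb2-KO cells it read 8.75 and 8.79, so the deposited values left more Nfkb2 signal in the DKO libraries. How the deletion sits relative to the reads counted was not given in the sources used here, and in bulk samples fewer cells with the transcript cannot be told apart from less transcript per cell.

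Nfkb2 shares exon sequence with its neighbour Psd in the annotation. Psd, looked at after its values were seen, read 8.56 in RelB-KO replicate 1 and 5.50 in RelB-KO replicate 2, against 5.96 and 5.36 in DKO. WT showed the same split, with 8.55 in replicate 1 and 5.54 in replicate 2. The gene was thus high only in the replicate 1 libraries with intact Nfkb2, and its difference of -1.37 did not pass the test (adjusted p = 0.576 in limma). Relb, deleted in both genotypes, read 6.35 and 6.52 in RelB-KO and 6.74 and 7.08 in DKO, against 10.66 and 10.49 in WT. Its remaining signal was 0.47 higher in DKO, which was not called (adjusted p = 0.546 in limma). Both DKO libraries nevertheless stayed more than 3 units below WT.

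**Figure D1:**
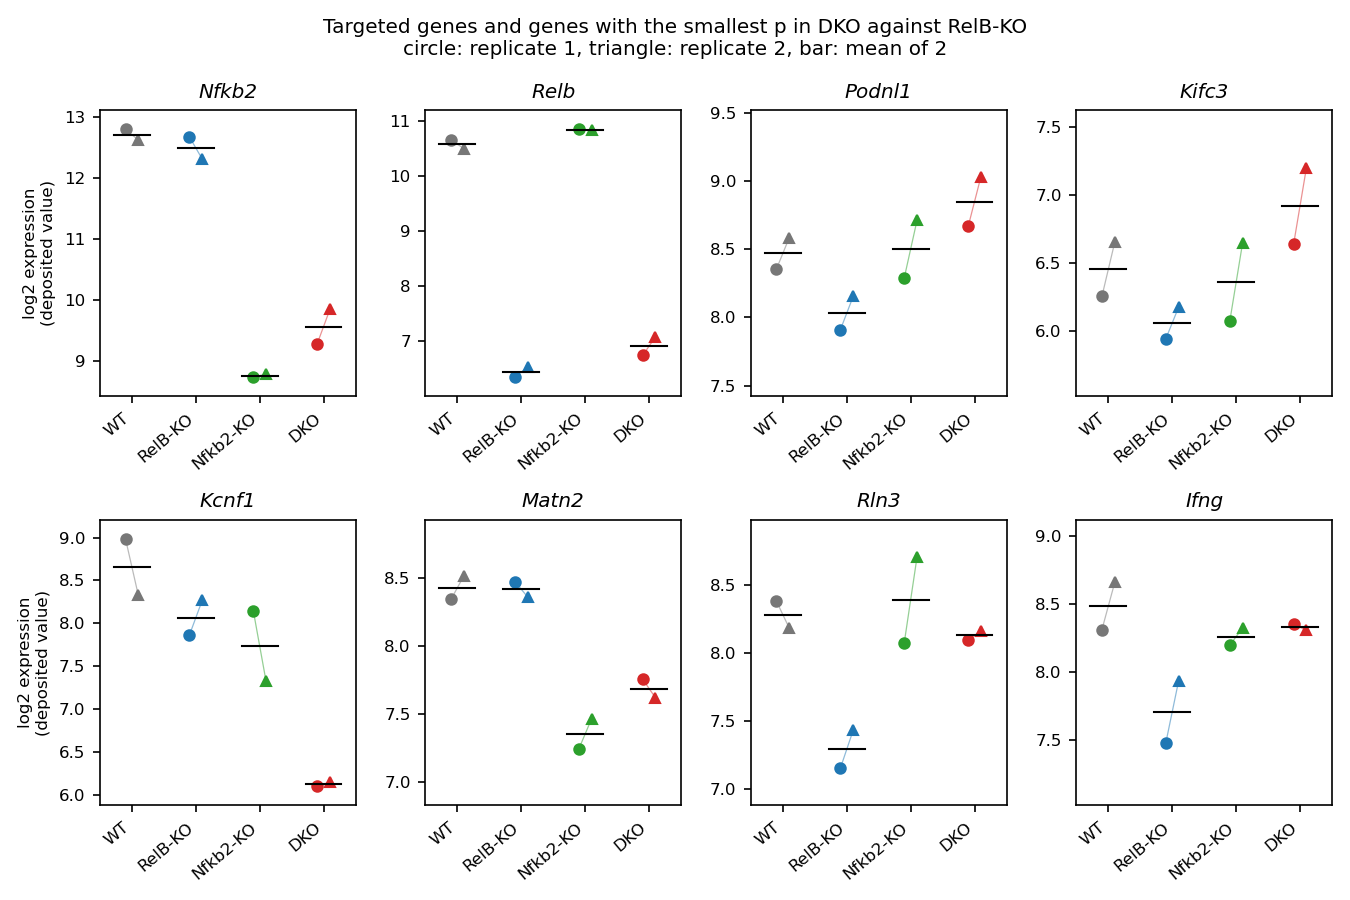
Deposited log2 expression (y axis) of 8 genes in the 4 genotypes (x axis). Circles are replicate 1, triangles replicate 2 and bars the mean of 2 libraries; each panel has its own range and does not start at 0. Nfkb2 fell from 12.67 and 12.31 in RelB-KO to 9.29 and 9.85 in DKO, and Podnl1 and Kifc3 had their highest means in DKO.

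Podnl1, which encodes a small leucine-rich repeat proteoglycan, was the gene that rose. It read 7.91 and 8.15 in RelB-KO and 8.67 and 9.04 in DKO, and the groups did not overlap, as held for 13.2% of all genes tested on the higher side. The difference was 0.82 ± 0.09 (SE, n = 2, adjusted p = 0.0475 in limma, 95% interval 0.62 to 1.02). With RelB present it was 0.03, from 8.36 and 8.59 in WT to 8.29 and 8.71 in Nfkb2-KO. The interaction, the difference between the 2 removals, was 0.79 (adjusted p = 0.0364 in limma), and the 0.82 is a term of it. The gene lies on chromosome 8 (84125989 to 84132527, plus strand). Its call stood close to the threshold: leaving out 1 of the RelB-KO or DKO libraries gave adjusted p of 0.0934 (RelB-KO replicate 1), 0.165 (RelB-KO replicate 2), 0.163 (DKO replicate 1) and 0.923 (DKO replicate 2). Without the replicate block the adjusted p was 1, and 5 other settings listed with the processing also lost it.

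Among genes not called, those with the smallest p and a higher value in DKO in both replicate pairs included enzymes, cytokines and signalling proteins. Kifc3, a minus-end-directed kinesin, read 5.95 and 6.18 in RelB-KO and 6.64 and 7.20 in DKO, a difference of 0.86 (adjusted p = 0.0857 in limma). Alpl, the tissue-nonspecific alkaline phosphatase, read 7.85 and 8.54 against 8.49 and 9.14, so the groups overlapped although each pair was higher in DKO. Pde3b, a cyclic nucleotide phosphodiesterase, read 6.69 and 6.86 against 7.40 and 7.68, a difference of 0.76 (adjusted p = 0.351). Kifc3, Alpl and Pde3b did pass the test of the interaction, at 0.96, 0.89 and 1.33. The difference by which they were named is a term of the interaction, so passing it is not separate support. Their differences between Nfkb2-KO and WT were -0.10, -0.27 and -0.57, and none of these was called. These 3 interactions were called in 3, 2 and 4 of the 8 fits that left out 1 library each (adjusted p up to 0.263, 0.263 and 0.212 in limma, in each gene without DKO replicate 2).

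The cytokine genes Il2 and Ifng stood in the same group. Il2 read 5.51 and 5.58 in RelB-KO and 6.06 and 6.44 in DKO. Ifng, the gene of the type 1 cytokine interferon-γ, read 7.48 and 7.94 against 8.35 and 8.31. In both genes the DKO libraries lay above the RelB-KO libraries, as held for 13.2% of all genes tested. Their differences were 0.71 and 0.62 (adjusted p = 0.546 for each in limma). WT libraries read 8.31 and 8.66 for Ifng, so both DKO libraries read close to the lower WT library. Rln3, which encodes the peptide relaxin-3, read 7.15 and 7.43 against 8.09 and 8.16, with 8.38 and 8.18 in WT. It lies on chromosome 8 (84042929 to 84045000), 81 kb from Podnl1, and its difference of 0.84 was not called. Themis, a protein of T cell receptor signalling, the adaptor gene Grb7 and B230120H23Rik differed by 0.52, 0.49 and 0.45.

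On the lower side the widest difference after Nfkb2 was that of Kcnf1, which encodes an electrically silent potassium channel subunit. Kcnf1 read 7.86 and 8.27 in RelB-KO and 6.10 and 6.15 in DKO, a difference of -1.94 ± 0.25 (SE, n = 2, adjusted p = 0.135 in limma). WT libraries read 8.99 and 8.33 and Nfkb2-KO libraries 8.15 and 7.32, so DKO had the lowest values of the 4 genotypes. Kcnf1 missed the threshold in every setting that kept all 8 libraries. It passed with the 4 DKO and RelB-KO libraries alone (adjusted p = 3.35e-05 in limma), a setting that called 23 genes. Leaving out each library in turn gave differences between -2.38 and -1.50.

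Matn2, a matrilin of the extracellular matrix, read 8.47 and 8.36 in RelB-KO and 7.75 and 7.62 in DKO. The difference of -0.73 was not called (adjusted p = 0.278 in limma), while that of -1.07 between Nfkb2-KO and WT was (adjusted p = 0.00208). Their interaction, 0.35, did not pass the test. Matn2 thus had lower values after Nfkb2 removal with RelB and without it. Rnf157, a RING-type ubiquitin ligase, read 12.13 and 11.38 against 11.28 and 10.52, with a wide gap between replicates. Both DKO libraries lay below both RelB-KO libraries, as held for 14.3% of all genes tested. Gpr34, Pbx4, Filip1l, Cd97 and Dmd differed by -0.52, -0.47, -0.43, -0.42 and -0.35, and Penk, the enkephalin precursor gene, which is high in Treg cells, by -0.63 (adjusted p between 0.482 and 0.546).

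The genes that respond to Nfkb2 loss when RelB is present were then followed in the cells without RelB. In Nfkb2-KO cells 402 genes (2.91%) differed from WT, 264 higher (1.91%) and 138 lower (1%), and without WT replicate 1 this count was 176, without Nfkb2-KO replicate 1 143 and without Nfkb2-KO replicate 2 219. Because the Nfkb2-KO and WT values chose these genes for wide differences, smaller ones between DKO and RelB-KO are in part built in. What follows describes these genes in DKO and RelB-KO and is not a test. The 264 higher genes had a median difference of 0.57 between Nfkb2-KO and WT and of 0.02 between DKO and RelB-KO. The middle 50% of them ran from -0.05 to 0.11, 153 (58%) were higher in DKO against 49.7% of all genes tested, and 25 (9.47%) had an unadjusted p under 0.05 on that side against 4.59%. Over all genes tested the median was 0.00. Both differences used the same estimate of spread per gene, so genes called in Nfkb2-KO against WT tend to have small spreads. That can raise the shares at an unadjusted p under 0.05, here and among the lower genes below.

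The 137 lower genes other than Nfkb2 had medians of -0.52 with RelB and -0.11 without it. Of these, 106 (77.4%) were lower in DKO than in RelB-KO, against 50.3% of all genes tested, and 36 (26.3%) had an unadjusted p under 0.05 on that side, where the share over all genes was 4.23%. The medians within replicate numbers were -0.05 and -0.20. Leaving out DKO replicate 1 gave a median of -0.19 and leaving out DKO replicate 2 one of -0.04. These lower genes thus leaned lower without RelB, by a smaller amount than with it. For the 264 higher genes, leaving out each library in turn gave medians between 0.00 and 0.05. Among the 37 of them higher by 1 or more in Nfkb2-KO, 51.4% were higher in DKO than in RelB-KO, with a median of 0.01.

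**Figure D2:**
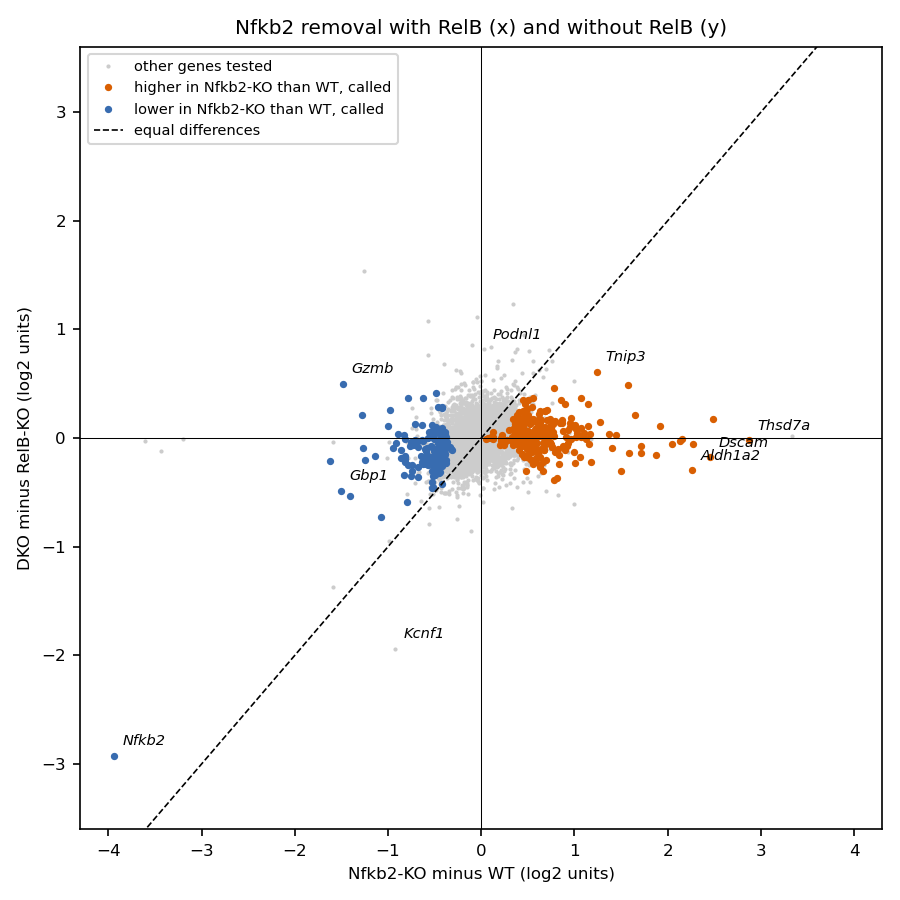
Difference between Nfkb2-KO and WT (x axis) against that between DKO and RelB-KO (y axis), in log2 units, for 13797 genes; each point is a gene, orange and blue points were called between Nfkb2-KO and WT, and the dashed line marks equal differences. The 264 orange points spread along the x axis and centre at 0.02 on the y axis, while Nfkb2 lies low on both axes.

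The test of the interaction asked which genes responded differently to Nfkb2 removal with and without RelB. It called 65 of 13797 genes (0.471%), 49 with a lower value without RelB (0.355%) and 16 with a higher one (0.116%), and 1153 (8.36%) had an unadjusted p under 0.05. Without WT replicate 1, the library that stood apart, 37 were called. Other single omissions that moved this count by more than 1.5 times were WT replicate 2 (123), RelB-KO replicate 1 (33), Nfkb2-KO replicate 1 (41), DKO replicate 1 (13) and DKO replicate 2 (11). All 49 lower genes had been called higher in Nfkb2-KO than in WT, a difference that is itself a term of the interaction. Their median was 0.99 there, and their difference between DKO and RelB-KO ran from -0.30 to 0.21 with a median of -0.05. None of these 49 was called between DKO and RelB-KO, where only 2 of all 13797 genes (0.0145%) were called. Of the 28 called interactions of genes named here, 7 were called whichever of the 8 libraries was left out (Aldh1a2, Hspg2, Rnf165, Whrn, Igsf3, Gzmb and Ikzf3), and the other 21 lost the call on leaving out at least 1 library.

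Among the lower genes with the largest interaction, Aldh1a2, the retinaldehyde dehydrogenase that makes retinoic acid, read 5.87 and 6.12 in RelB-KO and 5.73 and 5.67 in DKO, against 6.40 and 6.29 in WT and 8.49 and 8.72 in Nfkb2-KO. Only the Nfkb2-KO libraries were high. The difference without RelB was -0.30 (95% interval -0.55 to -0.05), and the interaction was -2.56 (adjusted p = 0.00107 in limma). Hspg2, which encodes the basement membrane proteoglycan perlecan, read 5.60 and 5.82 against 5.56 and 5.85, a difference of -0.01 (95% interval -0.26 to 0.24), while it rose by 2.15 in Nfkb2-KO. Its interaction was -2.16 (adjusted p = 0.00225).

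Dscam, an immunoglobulin-family adhesion molecule, read 6.00 and 6.32 in RelB-KO and 6.01 and 5.96 in DKO, with 7.14 and 7.84 in WT and 9.95 and 9.94 in Nfkb2-KO. All libraries without RelB lay below WT, and their difference of -0.17 had an interval of -0.55 to 0.20. DKO was lower than WT by the test (-1.51, adjusted p = 0.0226 in limma), while RelB-KO, at -1.34, was not called (adjusted p = 0.118); these comparisons have the WT libraries in common. Vcam1, the adhesion molecule bound by integrin α4β1, read 6.56 and 6.20 against 6.23 and 6.26, where Nfkb2-KO read 8.32 and 8.29. The podosome adaptor gene Sh3pxd2b read 6.51 and 6.19 against 6.60 and 6.45, with 9.38 and 9.17 in Nfkb2-KO. Scin, an actin-severing protein, read 8.92 and 8.83 against 9.08 and 8.56, with 11.48 and 11.25 in Nfkb2-KO. In each of these genes DKO and RelB-KO stood within 0.2 units of each other on average.

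Thsd7a, Rnf165, Sspo, Whrn and Myo3b had the same pattern, with differences of -0.02, -0.03, -0.05, -0.16 and 0.11 between DKO and RelB-KO and of 2.87, 2.13, 2.04, 1.88 and 1.91 between Nfkb2-KO and WT. The interval for Thsd7a was wide, -0.71 to 0.67, so a difference of that size was not excluded for it. Tnip3, an inhibitor of NF-kB signalling picked out after its values were seen, was the exception among the 264: it read 8.43 and 8.54 in RelB-KO and 8.81 and 9.38 in DKO. Its difference was 0.61 without RelB and 1.24 with it, and it was the only gene of the 264 that reached 0.5 in DKO against RelB-KO. The interaction for Tnip3, -0.63, did not pass the test (adjusted p = 0.234 in limma).

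**Figure D3:**
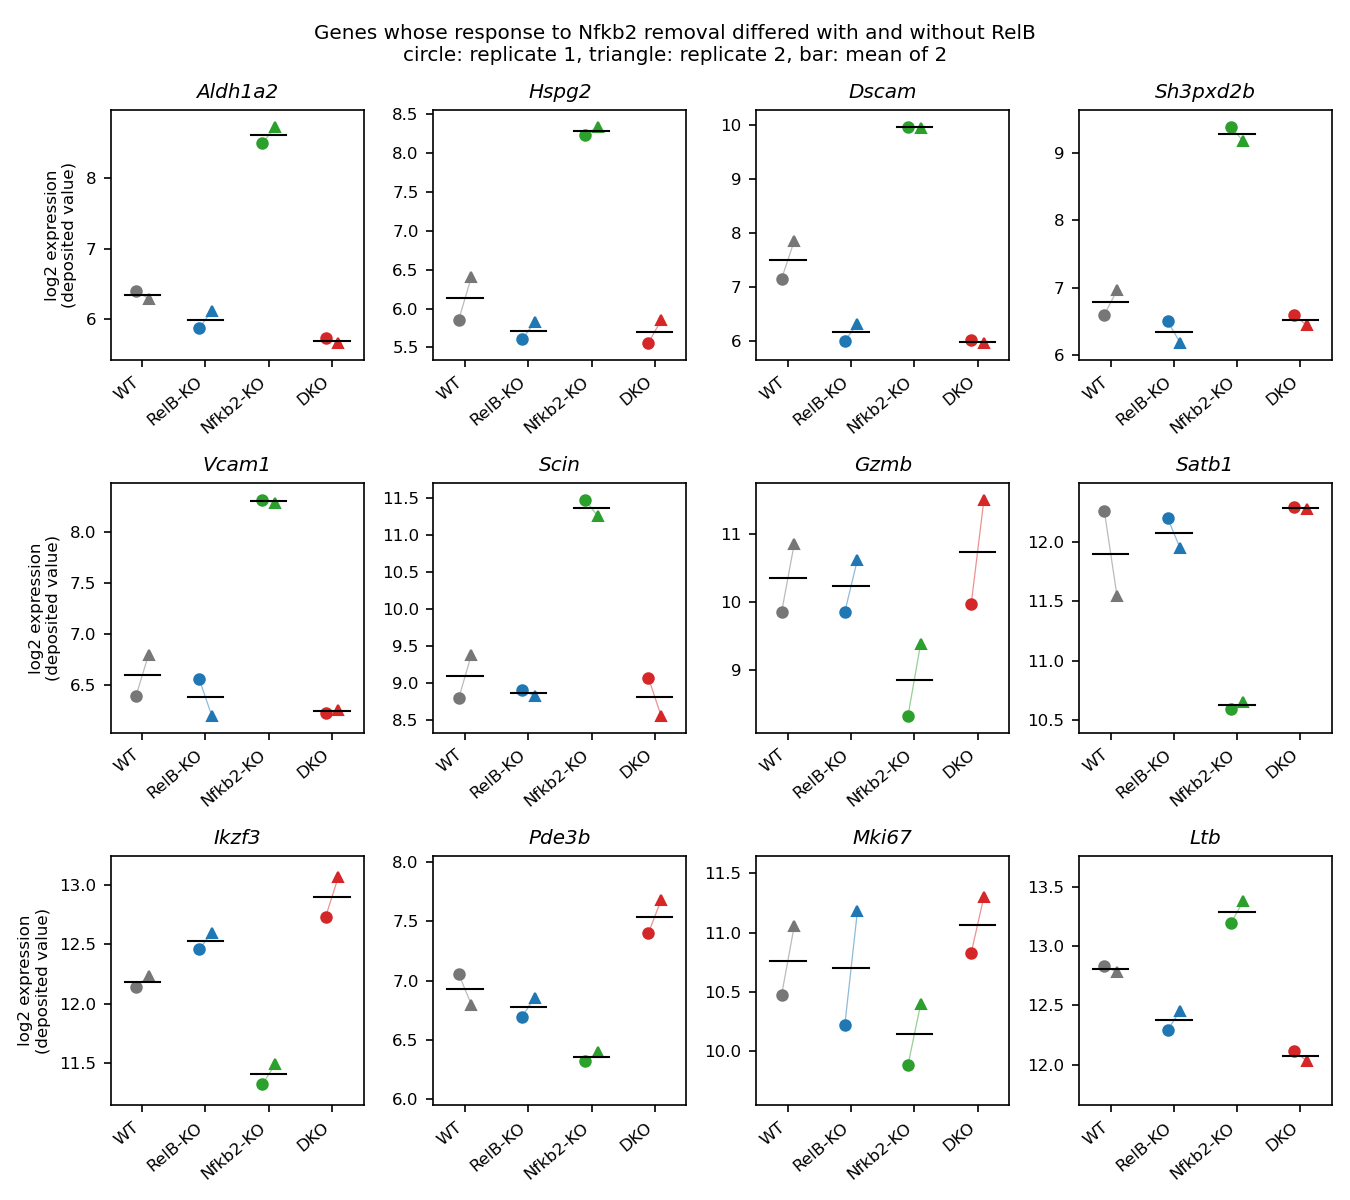
Deposited log2 expression (y axis) of 12 genes called in the interaction, by genotype (x axis). Circles are replicate 1, triangles replicate 2 and bars the mean of 2 libraries; each panel has its own range and does not start at 0. Aldh1a2, Hspg2, Dscam, Sh3pxd2b, Vcam1 and Scin read high in Nfkb2-KO only, and Gzmb, Satb1, Ikzf3, Pde3b and Mki67 had their lowest means there.

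The 16 genes with a higher interaction had a median of -0.84 between Nfkb2-KO and WT and of 0.33 between DKO and RelB-KO. Both differences are terms of the interaction that chose these genes, and 12 of the genes had been called lower in Nfkb2-KO. Gzmb, the cytotoxic granule protease granzyme B, read 9.85 and 10.62 in RelB-KO and 9.97 and 11.49 in DKO, with 8.33 and 9.39 in Nfkb2-KO. The DKO and RelB-KO libraries overlapped, and most of the difference of 0.50 came from replicate 2. The interaction for Gzmb was 1.99 (adjusted p = 0.00966 in limma). Ikzf3, which encodes the transcription factor Aiolos, read 12.46 and 12.60 against 12.73 and 13.06, whereas it read 11.32 and 11.49 in Nfkb2-KO and 12.14 and 12.23 in WT. Its order from low to high was thus Nfkb2-KO, WT, RelB-KO and DKO with no overlap between neighbours, and its interaction was 1.15 (adjusted p = 0.00665). DKO was called higher than WT for Ikzf3 (0.71, adjusted p = 0.0227).

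Satb1, a chromatin organiser of T cells, read 12.20 and 11.94 in RelB-KO and 12.29 and 12.28 in DKO, against 10.60 and 10.65 in Nfkb2-KO, and its interaction was 1.49. Plxnd1 and Itgb3, a semaphorin receptor and the integrin β3 chain, differed by 0.25 and 0.11 between DKO and RelB-KO, and both fell in Nfkb2-KO, Plxnd1 by 0.98. Pde2a, Il6ra and Matk, a phosphodiesterase, the IL-6 receptor α chain and a tyrosine kinase, differed by -0.21, -0.20 and -0.17 without RelB and by -1.63, -1.24 and -1.14 with it. These 3 genes had the same sign in both removals, while Gzmb, Satb1, Plxnd1, Ikzf3, Itgb3, Pde3b and Mki67 had opposite signs. Without RelB the 95% intervals of Pde2a, Il6ra, Matk, Satb1 and Itgb3 included 0, so their signs there are uncertain. For Pde2a the difference was -0.44 in replicate 1 and 0.01 in replicate 2. Of the other genes that fell most in Nfkb2-KO, Gbp1 and Syne2 differed by -0.49 and -0.54 between DKO and RelB-KO and Gbp2 by -0.09, and none of their interactions passed the test.

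Promoter sequence is shown for a gene that rose in Nfkb2-KO but not in DKO against RelB-KO and for 3 others of the 49 that hold the kB motif, the sequence class that NF-kB dimers bind. The consensus was searched by name on both strands in the 250 bases before each RefSeq start (GRCm38.p6, the mm10 assembly), where 39 of the 49 genes had an entry. It was found in 7 of 39 (17.9%), in 36 of the 199 (18.1%) with an entry among the genes higher in Nfkb2-KO, in 16 of 101 (15.8%) among those lower, and in 10.9% of 10061 tested genes with an entry. Bases annotated as exon were left out below, capitals mark the match, overlapping matches on both strands are 1 run, and each sequence is given 5′ to 3′ in the direction of its gene. Aldh1a2 (chr9:71215539-71215788, plus strand) had no match, and Igsf3 (chr3:101376875-101377082, plus strand), Ltb (chr17:35194257-35194438, plus strand) and Ccl1 (chr11:82179813-82180062, minus strand) had one. Igsf3 and Ccl1 were chosen after their values were seen.
Aldh1a2: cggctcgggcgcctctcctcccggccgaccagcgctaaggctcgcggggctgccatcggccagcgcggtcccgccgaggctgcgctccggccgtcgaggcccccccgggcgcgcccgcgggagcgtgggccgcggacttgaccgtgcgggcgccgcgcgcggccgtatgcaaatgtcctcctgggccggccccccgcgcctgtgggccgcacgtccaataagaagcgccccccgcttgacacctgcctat
Igsf3: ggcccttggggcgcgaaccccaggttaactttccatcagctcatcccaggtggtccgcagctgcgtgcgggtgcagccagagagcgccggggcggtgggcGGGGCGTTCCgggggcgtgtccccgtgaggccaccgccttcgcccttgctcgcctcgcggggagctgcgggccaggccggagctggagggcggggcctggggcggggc
Ltb: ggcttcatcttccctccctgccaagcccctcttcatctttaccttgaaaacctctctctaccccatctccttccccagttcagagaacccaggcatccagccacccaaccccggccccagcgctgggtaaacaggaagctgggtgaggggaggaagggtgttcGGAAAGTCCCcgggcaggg
Ccl1: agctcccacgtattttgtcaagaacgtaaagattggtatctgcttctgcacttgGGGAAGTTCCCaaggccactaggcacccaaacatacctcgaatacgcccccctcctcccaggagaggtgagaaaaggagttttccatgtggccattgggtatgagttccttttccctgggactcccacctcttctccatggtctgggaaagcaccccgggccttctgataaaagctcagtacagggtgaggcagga
A match says only that these letters are in the window, and no match says nothing of binding elsewhere.

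Igsf3, an immunoglobulin-family membrane protein, read 6.32 and 6.20 in RelB-KO, 6.19 and 6.16 in DKO and 8.11 and 7.98 in Nfkb2-KO, with an interaction of -1.49 (adjusted p = 0.00399 in limma). Ltb, the lymphotoxin β subunit that signals through the alternative pathway, read 12.29 and 12.45 in RelB-KO and 12.11 and 12.03 in DKO, against 12.83 and 12.78 in WT and 13.19 and 13.38 in Nfkb2-KO. All 4 libraries without RelB lay below WT, and the interaction was -0.78 (adjusted p = 0.0436). That call was lost whichever library was left out (adjusted p between 0.0678 and 0.263). The chemokine gene Ccl1 read 7.17 and 7.31 against 6.89 and 7.40, with 8.20 and 8.55 in Nfkb2-KO and an interaction of -0.92 (adjusted p = 0.0446), called in 1 of the 8 fits without 1 library.

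Among the subunits and inhibitors of NF-kB, 11 genes were tested and Nfkb2 was the only one called. Rel, the c-Rel subunit, read 11.77 and 11.38 in RelB-KO and 11.50 and 10.96 in DKO, a difference of -0.34 that was not called. Nfkb1 and Rela, the p105 and p65 subunits of the classical pathway, differed by 0.04 and -0.09. The inhibitor genes Nfkbia, Nfkbib, Nfkbid, Nfkbie and Nfkbiz differed by 0.03, -0.09, -0.05, 0.02 and -0.17, and the co-regulator gene Bcl3 by 0.13. Nfkbie, which rose by 0.62 in Nfkb2-KO (adjusted p = 0.013 in limma), read 9.89 and 9.53 in RelB-KO and 9.82 and 9.63 in DKO.

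In the signalling part of the alternative pathway, 11 of 13 genes had a lower value in DKO, against 50.3% of all genes tested. The median of the 13 was -0.10, and none had an unadjusted p under 0.05. Map3k14 and Chuk, the kinases NIK and IKKα, differed by -0.15 and 0.01. Traf1 and Tnfaip3, both feedback targets of NF-kB, differed by -0.22 and -0.35. Leaving out each library in turn gave differences between -0.71 and 0.01 for Tnfaip3. Birc2, which encodes a ubiquitin ligase that keeps NIK low in resting cells, read 11.33 and 11.24 in RelB-KO and 11.35 and 10.97 in DKO, against 12.16 and 12.19 in Nfkb2-KO, and it was called in the interaction (-0.94, adjusted p = 0.0451 in limma; picked out after its values were seen). Birc2 thus stood high only in Nfkb2-KO, and its interaction was called in 2 of the 8 fits that left out 1 library.

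Among 15 TNF receptor genes the median was -0.04 and none was called. At an unadjusted p under 0.05, 2 were higher and 2 lower (26.7% together), against 8.81% of all genes tested. Tnfrsf4, the OX40 gene whose product was engaged in the culture, read 14.24 and 14.05 against 14.21 and 14.20. Tnfrsf8, the CD30 gene, read 11.29 and 11.11 in RelB-KO and 11.59 and 12.25 in DKO, a difference of 0.72. Its groups did not overlap, as held for 13.2% of all genes tested on the higher side, and Cd27 differed by -0.29. Of 26 NF-kB target genes 14 were higher and 12 lower in DKO, with a median of 0.02, where the median was 0.27 between Nfkb2-KO and WT. Irf4, a transcription factor of activated lymphocytes, read 13.11 and 13.16 against 13.44 and 13.56 and differed by 0.37 without being called.

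The core Treg genes showed no shared direction, and effector Treg genes had higher values mainly in replicate 2. Of 19 tested Treg signature genes, 9 were higher and 10 lower in DKO, with a median of -0.03. Foxp3 differed by -0.13 (95% interval -0.35 to 0.10), and Il2ra and Ctla4, the IL-2 receptor α chain and an inhibitory receptor, by 0.31 and 0.28. Of 24 effector Treg genes, 20 were higher in DKO, against 49.7% of all genes tested, with a median of 0.25. None was called, and 10 (41.7%) had an unadjusted p under 0.05 on the higher side, where the share over all genes tested was 4.59%. The median was 0.04 in replicate 1 and 0.49 in replicate 2, and leaving out RelB-KO replicate 2 or DKO replicate 2 lowered it to 0.07 or 0.13, while leaving out RelB-KO replicate 1 raised it to 0.44.

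The effector genes with the smallest p were transcription factors and a checkpoint receptor. Prdm1, which encodes Blimp-1, read 10.81 and 10.88 in RelB-KO and 11.22 and 11.51 in DKO, a difference of 0.52. Batf read 11.77 and 11.62 against 11.98 and 12.58, and Maf 12.27 and 12.07 against 12.69 and 12.84. In these 3 genes both DKO libraries lay above both RelB-KO libraries, as held for 13.2% of all genes tested. The genes were named for their small p, so that separation is in part built in. Lag3, an inhibitory receptor that binds MHC class II, read 10.52 and 11.08 against 11.28 and 11.95, with the widest difference of the list at 0.81. The adjusted p was 0.546 for each of the 4 in limma. Of 18 resting T cell genes, 13 were lower in DKO, against 50.3% of all genes tested. The median of the 18 was -0.04, and it was 0.07 in replicate 1 and -0.25 in replicate 2.

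Cell cycle genes had higher values in DKO in both replicate pairs, and in Nfkb2-KO most had lower values than in WT. All 25 listed genes had a positive difference, 24 of them in both pairs, against 49.7% and 28.2% of all genes tested. The median was 0.27, and it was 0.30 and 0.29 within replicates 1 and 2. None was called, and 16 (64%) had an unadjusted p under 0.05 on the higher side, against 4.59% of all genes tested. Leaving out RelB-KO replicate 1 gave a median of 0.19 and leaving out RelB-KO replicate 2 one of 0.38. With RelB present 8 of the 25 were higher in Nfkb2-KO and the median was -0.24.

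Mki67, the gene of the proliferation antigen Ki-67, was the cell cycle gene called in the interaction (0.99, adjusted p = 0.0451 in limma). The call held only on leaving out RelB-KO replicate 2 and was lost without any of the other 7 libraries (adjusted p up to 0.216). It read 10.22 and 11.18 in RelB-KO and 10.83 and 11.30 in DKO, against 10.47 and 11.05 in WT and 9.89 and 10.40 in Nfkb2-KO. Top2a, the DNA topoisomerase of dividing cells, read 10.34 and 11.38 against 10.97 and 11.66, and Mcm3, a subunit of the replicative helicase, 11.74 and 12.24 against 12.04 and 12.61. The mitotic kinase gene Aurkb and the cyclin gene Ccna2 differed by 0.37 and 0.28. In Mki67, Top2a, Mcm3, Aurkb and Ccna2 replicate 2 read higher than replicate 1 in both genotypes and the groups overlapped, so the difference was visible only within a replicate number.

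Cholesterol synthesis genes were also mostly higher in DKO, and their median was similar between Nfkb2-KO and WT. Of 21 tested genes 19 had a positive difference, against 49.7% of all genes tested. The median was 0.14, and it was 0.16 and 0.14 within replicates 1 and 2. An unadjusted p under 0.05 on the higher side was found for 10 (47.6%), against 4.59% of all genes tested. Leaving out RelB-KO replicate 2 raised the median to 0.23. The median between Nfkb2-KO and WT was 0.13. Fdps, the farnesyl diphosphate synthase, read 9.14 and 10.16 in RelB-KO and 9.47 and 10.55 in DKO, and Sqle, the squalene epoxidase, 10.51 and 10.54 against 10.83 and 10.81. Fdft1 and Lss, which act before and after Sqle, differed by 0.29 and 0.27. Among 16 glycolysis genes 13 were higher, against 49.7% of all genes tested. Of the 16, 4 (25%) had an unadjusted p under 0.05 on the higher side, against 4.59%. The glycolysis median was 0.10, and it was 0.01 without DKO replicate 2 and 0.21 without DKO replicate 1. Hk2, the hexokinase induced on activation, differed by 0.45. Among 23 oxidative phosphorylation genes 20 had a positive difference, against 49.7% of all genes tested. The median of the 23 was 0.09, and it was 0.03 without DKO replicate 2 and 0.15 without DKO replicate 1. Of the 23, 1 (4.35%) had an unadjusted p under 0.05 on the higher side, near the share over all genes.

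**Figure D4:**
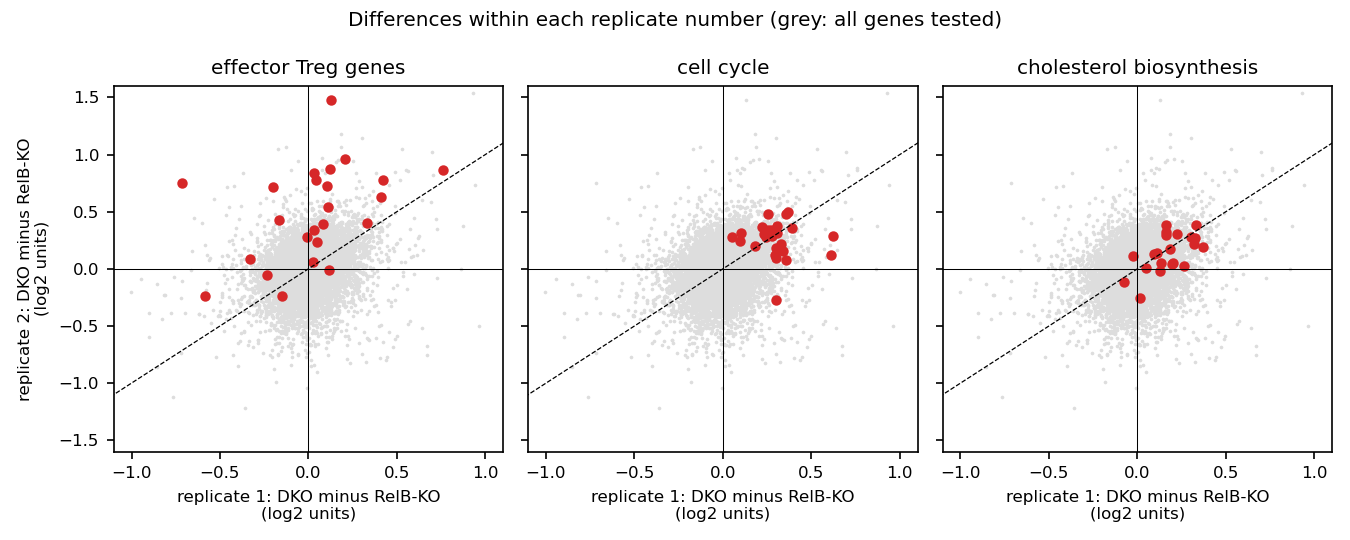
Difference between DKO and RelB-KO within replicate 1 (x axis) and replicate 2 (y axis), in log2 units; red points are the tested genes of 3 lists, grey points all 13797 genes, the dashed line marks equal values, and genes beyond the axes, such as Nfkb2, are not drawn. Effector Treg genes spread upward along the y axis (medians 0.04 and 0.49), and cell cycle genes lie near the dashed line (0.30 and 0.29).

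The other lists had medians between -0.10 and 0.10. Over all genes tested 49.7% were higher and 50.3% lower in DKO. Helper T cell cytokine genes had a median of 0.06 with 13 of 17 higher. An unadjusted p under 0.05 was found for 4 (23.5%), all on the higher side, against 4.59% of all genes tested. Their median was 0.02 in replicate 1 and 0.25 in replicate 2, and it was 0.03 without DKO replicate 2 and 0.21 without RelB-KO replicate 1. Among 17 lineage regulators 6 (35.3%) had an unadjusted p under 0.05, 5 of them higher, against 8.81% of all genes tested in either direction. Their median was 0.06 with 10 of 17 higher. That median was 0.18 without RelB-KO replicate 1 and -0.08 without RelB-KO replicate 2, so its sign rested on single libraries. Chemokine receptors and adhesion genes had a median of 0.03 with 13 of 21 higher, and MHC class II genes 0.01 with 4 of 7. Of the 21, 4 were higher and 1 lower at an unadjusted p under 0.05 (23.8% together), against 8.81%. Il21 and Il17a, cytokine genes of follicular and type 17 helper cells, differed by 0.37 and 0.31, and Tbx21, the gene of the type 1 regulator T-bet, read 9.44 and 10.28 against 10.17 and 10.62. Interferon-stimulated genes had a median of -0.05 with 9 of 26 higher, apoptosis genes -0.03 with 8 of 18, and T cell identity genes -0.03 with 6 of 13. Of 21 stress and immediate-early genes 15 were lower, with a median of -0.09, and Fosb, Nr4a2, Jun and Dusp1 differed by -0.52, -0.41, -0.36 and -0.31. An unadjusted p under 0.05 on the lower side was found for 4 (19%), against 4.23% of all genes tested. B cell and myeloid and dendritic cell markers had medians of 0.00 and -0.04. CD8 T and NK cell markers had a median of 0.03, and 9 of 11 had a positive difference. On the higher side 4 (36.4%) had an unadjusted p under 0.05, against 4.59% of all genes tested. These were Eomes (0.37), Gzmk (0.20), Gzma (0.08) and Klrk1 (0.04). The 11 markers were low, with summed un-logged levels of 651 to 973 in RelB-KO and 756 to 889 in DKO. Most effector Treg and cytokine genes had positive differences in the same comparison, and the part of other cells in these results was not tested. The list of adhesion, matrix and cytoskeleton genes was chosen with the Nfkb2-KO results known. Of its 19 tested genes, 13 had been called between Nfkb2-KO and WT, against 2.91% of all genes tested. The list median was 0.23 there and -0.02 between DKO and RelB-KO. Both the count and the gap between these medians are in part built in by that choice.

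**Figure D5:**
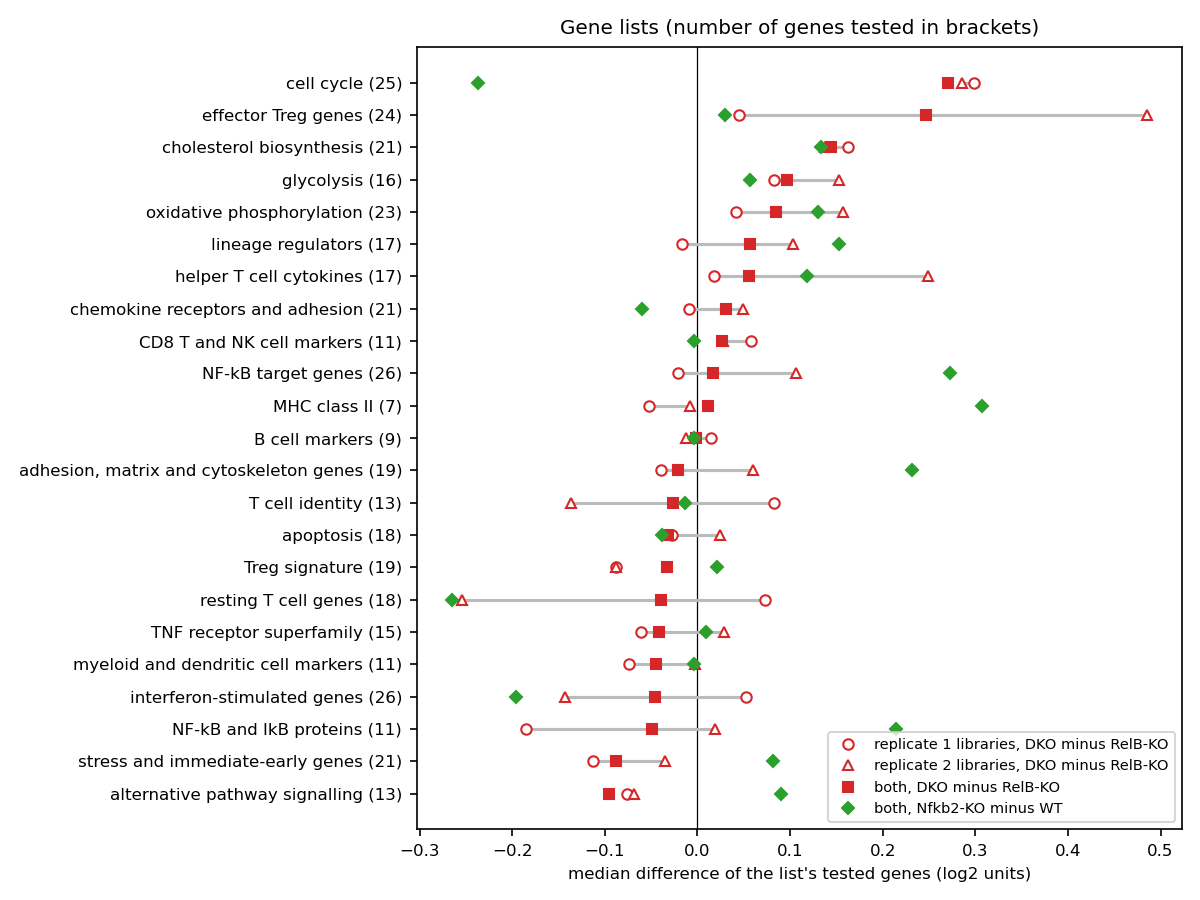
Median difference of each gene list (y axis, number of genes tested in brackets) in log2 units (x axis). Red squares are DKO minus RelB-KO, open circles and triangles the same within replicates 1 and 2, and green diamonds Nfkb2-KO minus WT. Cell cycle genes lie at 0.27 in red and at -0.24 in green, and effector Treg genes have the widest gap between replicates.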

How the data were processed

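RNA of 8 Treg libraries was made with TruSeq kits, per the labels' protocols. The submitters' processing notes list mm10 as the genome and STAR and DESeq2 1.10.1 as tools, with no roles. Counting, annotation and batch method are not given in the sources used here. The deposited values are log2 expression, called log2 RPKM and batch corrected per the file headers. Their sums do not match RPKM, so they were used as relative log2 values. The other 8 per-sample columns (z-scores) and the authors' fold changes were not used.

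Of 22432 genes, 6247 at 0 in all 8 libraries were left out, as was 1 with a blank cell, and the test ran on the 13797 genes whose un-logged values averaged 1 or more. The plan allowed for linear or count values, but the values were already log2. limma 3.58.1 in R 4.3.3, tested on simulated data, was fitted to all 8 libraries with 4 genotypes, the replicate number as a block and a variance trend (3 residual degrees of freedom), with Benjamini-Hochberg adjustment over all genes tested at 0.05. An interaction is the DKO minus RelB-KO difference less the Nfkb2-KO minus WT difference. The labels share replicate numbers, and the numbers pair the libraries: the difference between replicates correlated across genes at 0.812 to 0.887 in the 6 pairs of genotypes, and the first principal component (67.8% of variance) separated the numbers.

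The comparison, the gene lists and the rule for named genes were chosen with earlier results of these data known. The rule took the NF-kB and IkB genes, all genes called, up to 10 a direction with the smallest p, the 10 most extreme called genes a direction in the interaction and in Nfkb2-KO against WT, and up to 4 genes a list by p. Symbols turned into dates were not named. Loci come from GENCODE on mm10 and promoters from RefSeq on GRCm38.p6. Alternatives were no block, the 4 libraries alone, log2(un-logged value + 1), no minimum, a minimum of 32, quantile normalization, no variance trend and each library left out.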

Additional observations from a re-analysis of the deposited data

Results flagged for a closer look

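The response to Nfkb2 removal differed with and without RelB, by the test of the interaction, for 65 genes. Among the genes named above, the interaction was negative, so that the response was lower without RelB, for Thsd7a (-2.90), Dscam (-2.63), Aldh1a2 (-2.56), Scin (-2.32), Sh3pxd2b (-2.31), Hspg2 (-2.16), Rnf165 (-2.16), Sspo (-2.10), Whrn (-2.04), Vcam1 (-1.85), Myo3b (-1.81), Igsf3 (-1.49), Birc2 (-0.94), Ccl1 (-0.92) and Ltb (-0.78). It was positive for Gzmb (1.99), Satb1 (1.49), Pde2a (1.42), Pde3b (1.33), Plxnd1 (1.24), Ikzf3 (1.15), Itgb3 (1.11), Il6ra (1.04), Mki67 (0.99), Matk (0.97), Kifc3 (0.96), Alpl (0.89) and Podnl1 (0.79). These 28 values kept their sign on leaving out any of the 8 libraries, while the number called fell to between 7 and 23.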

How the results depend on the processing

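Without the replicate block, 1 gene was called between DKO and RelB-KO, 1 in the interaction and 47 between Nfkb2-KO and WT, against 2, 65 and 402 with it. Without a variance trend the counts were 0 (1284 at an unadjusted p under 0.05), 0 (1207) and 40, and without a minimum level 1, 18 and 245. DKO against RelB-KO gave 1 gene with log2(un-logged value + 1), a minimum of 32 or quantile normalization, and 23 with only its 4 libraries in the fit. Leaving out each library in turn gave 1 to 4 genes, 11 to 123 in the interaction and 143 to 486 between Nfkb2-KO and WT, with the remaining library of that genotype assumed to vary like the others. Between DKO and RelB-KO, 4 genes were called without WT replicate 1, WT replicate 2, RelB-KO replicate 2 or either Nfkb2-KO library, and 1 without DKO replicate 1. The cause of these shifts was not tested. Nfkb2 was called in all of these settings except that without a trend (adjusted p = 0.368 in limma). Counts of called genes therefore depend on how the spread is estimated from 3 residual degrees of freedom, and depth, which is unknown, limits what can be said of weakly expressed genes.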

Other observations

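The replicate number was the largest source of variation among the libraries, and for Hmgcs1 it exceeded every genotype difference. Hmgcs1, the cholesterol synthesis enzyme upstream of HMG-CoA reductase, read 5.89 and 5.83 (replicate 1 of Nfkb2-KO and DKO) and 5.86 and 5.86 (replicate 1 of WT and RelB-KO), against 10.44 to 10.75 in the replicate 2 libraries. Its difference between DKO and RelB-KO, within replicate numbers, was 0.05. Hmgcs1 was picked out after its values were seen, and the deposited values were described as batch corrected. Psd, which shares exon sequence with Nfkb2, was high in replicate 1 of the genotypes with intact Nfkb2 (8.55 and 8.56) and between 5.36 and 5.96 in the other 6 libraries.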
